A study of Mus musculus and Homo sapiens with 16 samples.

Results

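In the epithelium of mouse skin at E17.5, 858 of the 6433 KLF5 ChIP-seq peaks on chromosomes 1 to 19, X and Y shared no base with a peak of open chromatin from ATAC-seq of the same tissue. These 858 regions are described here. Of them, 327 overlapped an H3K27ac peak by at least 1 bp and 531 did not. The members were chosen by the KLF5 and ATAC peak positions and split by those of H3K27ac, so their KLF5, ATAC and H3K27ac values are given as a description, without a test. The positions relative to genes, the promoter sequences and the RNA were not used to choose them.

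Chromatin was profiled in 1 sample for each assay, and RNA in 3 libraries labelled Klf5-/- and 3 labelled Klf5+/-. All were C57BL/6 embryonic skin epithelia at E17.5, peeled from the dermis and sorted as DAPI-, CD45- and integrin alpha 6 positive. The KLF5 and H3K27ac samples are labelled wild type; the ATAC sample is labelled wild type too, although its title carries Het. The sources used here do not give the deleted part of Klf5, any Cre driver or the number of embryos in a sample. The labels do not state separate embryos for the libraries of a genotype, so a p-value reflects the variation among libraries, and some of it may be technical.

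KLF5 is a zinc-finger transcription factor of the KLF/SP family, which binds GC-rich and CACCC sequences at promoters and enhancers of epithelial genes. ATAC-seq reads accessible DNA through a transposase. H3K27ac is a histone acetylation found at promoters and enhancers in use. Most transcription factor peaks fall in accessible DNA, and reads from satellite repeats can pile up into peaks in any library.

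The summits of 14 members lay inside 16 RefSeq promoter windows, and 5 of these promoters are printed because their genes recur in the results. Tmem125, a membrane protein gene, had the highest KLF5 fold enrichment among them, and Arfgef2, an activator of ARF GTPases, carried KLF/SP matches closest to its summit. Krt5 (the keratin of basal cells) and Ormdl3 (a regulator of sphingolipid synthesis) had an H3K27ac peak, and Prom2 (a membrane glycoprotein of epithelia) had none. Each line holds the 250 bases before the RefSeq start on the gene's strand, on GRCm38.p6, with matches to the KLF/SP letters CCNCNCCC on either strand in capitals. Positions of summits in these windows count from the RefSeq start, which can differ from the gene start of the deposited gene table used elsewhere.
Tmem125, chr4:118543727-118543976, minus strand: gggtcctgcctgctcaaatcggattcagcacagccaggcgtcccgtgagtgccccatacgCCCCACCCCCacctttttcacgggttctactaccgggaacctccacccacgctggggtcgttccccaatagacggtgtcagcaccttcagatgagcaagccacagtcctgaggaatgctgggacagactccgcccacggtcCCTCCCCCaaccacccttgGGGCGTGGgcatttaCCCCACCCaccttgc
Arfgef2, chr2:166805331-166805580, plus strand: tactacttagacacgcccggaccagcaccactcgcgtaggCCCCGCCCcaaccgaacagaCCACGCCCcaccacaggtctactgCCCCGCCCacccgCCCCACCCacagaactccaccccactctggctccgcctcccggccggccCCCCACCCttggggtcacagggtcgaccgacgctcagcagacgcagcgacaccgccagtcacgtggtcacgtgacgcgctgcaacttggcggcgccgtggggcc
Krt5, chr15:101712906-101713155, minus strand: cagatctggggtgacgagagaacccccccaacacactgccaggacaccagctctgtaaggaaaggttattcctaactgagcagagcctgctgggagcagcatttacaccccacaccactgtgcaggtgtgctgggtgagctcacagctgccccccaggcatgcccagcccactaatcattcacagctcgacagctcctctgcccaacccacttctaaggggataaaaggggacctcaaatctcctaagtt
Ormdl3, chr11:98587246-98587495, minus strand: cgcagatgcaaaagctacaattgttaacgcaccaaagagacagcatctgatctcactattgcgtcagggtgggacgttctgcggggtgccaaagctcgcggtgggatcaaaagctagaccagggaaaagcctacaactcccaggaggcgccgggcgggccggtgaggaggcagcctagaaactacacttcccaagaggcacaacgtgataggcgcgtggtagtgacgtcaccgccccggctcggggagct
Prom2, chr2:127541418-127541667, minus strand: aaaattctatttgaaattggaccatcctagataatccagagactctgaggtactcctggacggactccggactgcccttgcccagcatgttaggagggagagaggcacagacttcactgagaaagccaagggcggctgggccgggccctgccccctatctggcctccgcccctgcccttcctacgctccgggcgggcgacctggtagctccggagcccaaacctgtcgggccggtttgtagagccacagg

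The Tmem125 and Arfgef2 stretches each held 5 matches. The middle of the nearest match lay 38 bases from the KLF5 summit at Tmem125 and 4 bases from it at Arfgef2, where the summit fell within the match. The summits stood at −224 (Tmem125), −190 (Arfgef2), −113 (Ormdl3) and −155 (Prom2), and at 11 after the start for Krt5, just past the bases printed. The Krt5, Ormdl3 and Prom2 stretches held no match, which says only that these letters are not in this window. They are not typical in this: 12 of the 16 windows that hold a summit had a match. The GC box letters GGGCGGG, which overlap the KLF/SP letters where further bases fit, were found in the Ormdl3 and Prom2 windows and not in that of Krt5. The CACCC box letters CCCACCC were found in the Ormdl3 window and not in those of Prom2 and Krt5.

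The members were on average weaker peaks than those inside open chromatin. The fold enrichment at the summit, the authors' ratio over the local background, had a median of 3.87 in the members with H3K27ac (range 2.43 to 17.9) and 3.80 in those without (range 1.98 to 7.28). It was 4.10 in KLF5 peaks inside ATAC peaks with H3K27ac and 3.83 in those inside without it. Median widths were 324 and 268 bp in the members with and without H3K27ac, against 365 and 284 bp inside. The members without H3K27ac thus stood close, in height and width, to the inside peaks without it.

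The share of KLF5 peaks that lay outside ATAC peaks was highest among the weakest peaks. It was 22.7% (82 of 362; exact binomial 95% interval 18.4 to 27.3%) for a −log10 q under 3 and 375 of 2145 peaks for 3 to 5. It was 11.7% for 5 to 7, 10.4% for 7 to 10 and 6.94% (63 of 908; interval 5.37 to 8.79%) for 10 to 20. Among the 165 strongest peaks, with a −log10 q of 20 or more, it was 12.1% (interval 7.56 to 18.1%). Of those 20 strongest members, 18 had H3K27ac and 2 did not. These intervals, as all that follow, cover counting error only and not the variation between samples.

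**Figure D1:**
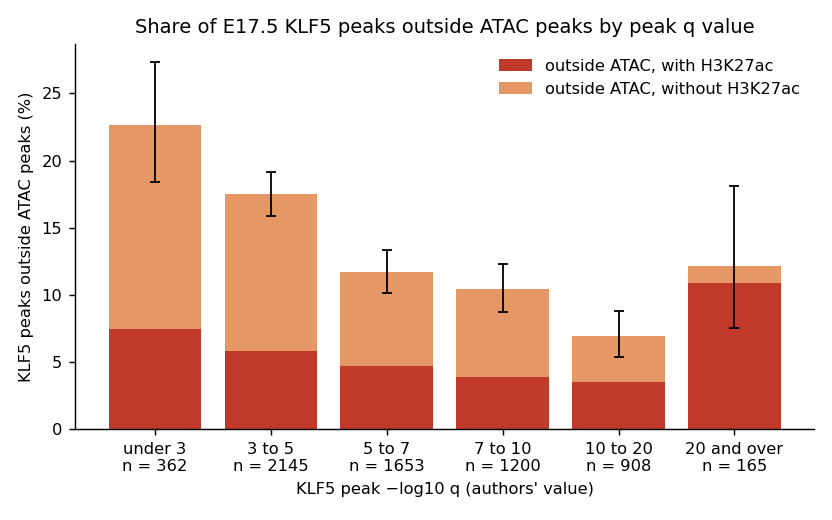
Share of E17.5 KLF5 peaks outside ATAC peaks (y axis, percent) in bins of the authors' −log10 q (x axis), split by overlap with H3K27ac; bars are exact binomial 95% intervals of the whole share. The share is 22.7% in the weakest bin and 6.94% in the bin of 10 to 20, and the strongest bin is nearly all members with H3K27ac (18 of 20).

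An H3K27ac peak was less common outside open chromatin as inside it. It overlapped 38.1% of the members (327 of 858, interval 34.8 to 41.5%), against 79.6% of the KLF5 peaks inside (4437 of 5575, interval 78.5 to 80.6%). The H3K27ac signal under the members was also lower and narrower: the median H3K27ac fold enrichment was 3.51 against 4.28 inside, and the median width of the H3K27ac peak was 411 against 768 bp. For 283 of the 327 members the H3K27ac peak itself overlapped no ATAC peak. In the other 44 (13.5%) it reached into one, and there its median width was 1127.5 bp, against 383 bp where it did not. In the whole H3K27ac list 26.4% of peaks (4777) overlapped no ATAC peak.

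Members without H3K27ac were mostly far from the mark. Their nearest H3K27ac peak was at a median gap of 15896 bp, against 18637 bp for inside peaks without H3K27ac, so this distance is not particular to the members. For the members it was under 1 kb away for 44 of the 531 and 50 kb or more away for 140.

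The members lay at a median of 6805 bp from the nearest ATAC peak, and those with H3K27ac lay closer to one. The median gap was 5113 bp with H3K27ac and 7708 bp without. An ATAC peak stood within 500 bp of 66 members with H3K27ac (20.2%, interval 16.0 to 24.9%) and of 42 without (7.91%, interval 5.76 to 10.5%). At the other end 15 and 48 members lay 50 kb or more from open chromatin. The largest gap was 453440 bp, at chr5:40499162-40499431, a member of fold 3.99 without H3K27ac.

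H3K27ac and gene starts were most common near open chromatin. Of the 47 members under 100 bp from an ATAC peak, 59.6% had H3K27ac and 13 (27.7%) lay within 1 kb of a gene start. Of the 284 members at 10 to under 50 kb, 34.5% had H3K27ac and 8 (2.82%) lay near a start, close to the 34.2% and 5.22% of the 345 members at 1 to under 10 kb. At 50 kb and over, 23.8% of 63 had H3K27ac and 3 (4.76%) lay near a start. The KLF5 fold enrichment did not fall in step: its median was 3.39 under 100 bp, 3.80 at 1 to under 10 kb and 3.93 at 10 to under 50 kb, and the highest member of all was in that last group.

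**Figure D2:**
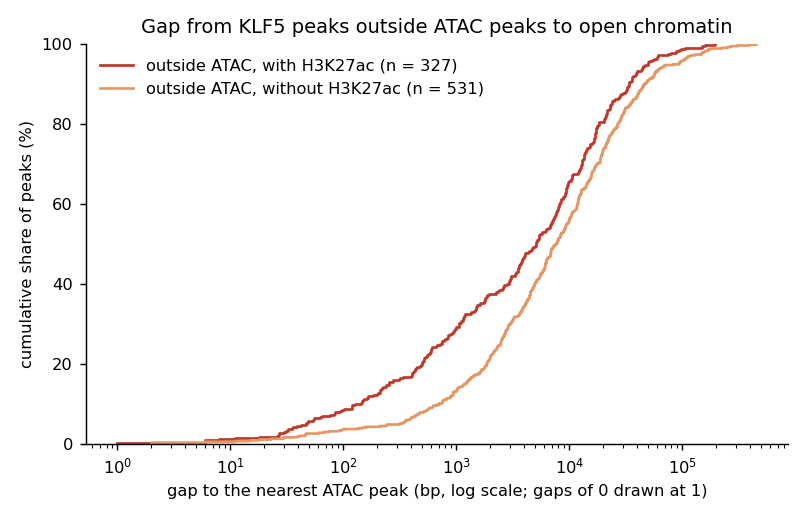
Cumulative share of members (y axis, percent) by the gap in bp to the nearest ATAC peak (x axis, log scale), for 327 members with and 531 without H3K27ac. The curve with H3K27ac lies to the left: 20.2% of these members are within 500 bp of an ATAC peak, against 7.91% of those without.

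At the threshold the choice turned on a few bases. The 3 members closest to an ATAC peak touched it without sharing a base, or were separated from it by 2 bases: the first lay within Mindy1, 969 bp upstream of Prune1 (fold 3.27, with H3K27ac), the second within Usf1 upstream of Tstd1 (fold 3.29) and the third within Lrig1, a gene of epidermal stem cells (fold 3.33). The 3 KLF5 peaks just inside shared 1, 2 and 2 bases with an ATAC peak. Their fold enrichments were 3.86 (nearest start Rnf186), 3.45 (within Plp2) and 3.77 (within Chd3).

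KLF5 peaks outside open chromatin were mostly away from gene starts. The summit was within 1 kb of a start for 39 of 327 members with H3K27ac (11.9%, interval 8.62 to 15.9%) and 28 of 531 without (5.27%, interval 3.53 to 7.53%). Inside ATAC peaks these shares were 52.6% (interval 51.1 to 54.1%) with H3K27ac and 12.7% (interval 10.8 to 14.7%) without. Median distances to the nearest start were 13095 and 14755 bp for the members with and without H3K27ac, against 671 and 15874.5 bp inside. Gene bodies, starts included, held 48.0% and 54.8% of the members with and without H3K27ac, against 45.8% and 51.1% inside. Summits in a gene body and more than 1 kb from a start made up 41.6% and 51.6% of the members, against 23.4% and 45.5% inside. Those outside genes and more than 1 kb from a start made up 46.5% and 43.1%, against 24.0% and 41.8%. Both are shares of all peaks of a class, start peaks included, so both are low where many peaks lie at starts. The 4 classes come from 1 library per assay, so no test between them was made.

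**Figure D3:**
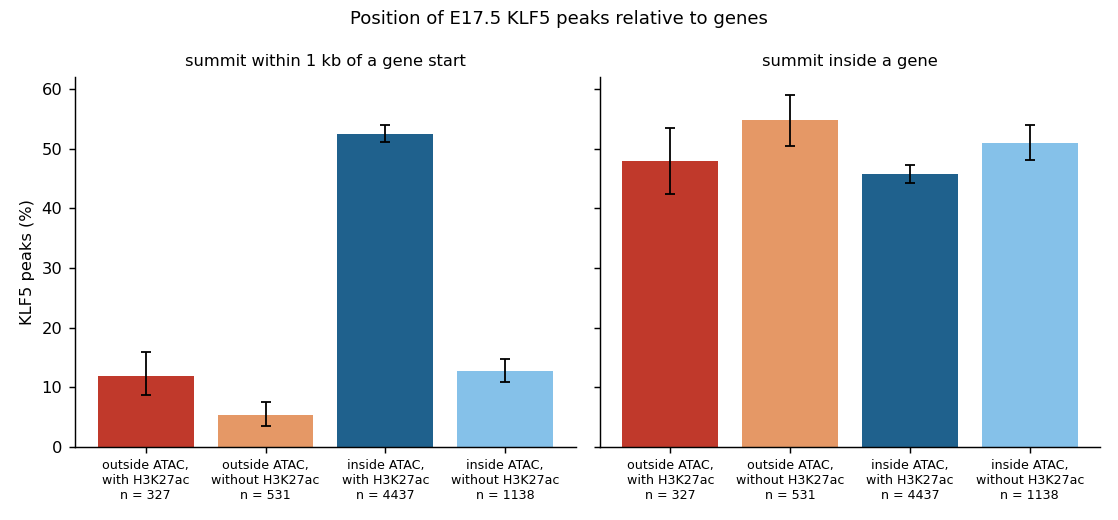
Share of KLF5 peaks (y axis, percent) with the summit within 1 kb of a gene start (left) or inside a gene (right), for the members (red and orange) and for KLF5 peaks inside ATAC peaks (blue); bars are exact binomial 95% intervals. Only the inside peaks with H3K27ac are mostly near starts (52.6%), while the gene body shares lie between 45.8 and 54.8%.

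Many members near a start were also near open chromatin. Of the 67 within 1 kb of a start, 38 had an ATAC peak under 1 kb away and 11 had none within 10 kb. The nearest start belonged to a protein-coding gene for 62.4% of members with H3K27ac and 58.9% of those without, against 78.0% and 63.9% inside. It belonged to a pseudogene for 6.42% and 9.60%, against 4.17% and 5.98%. The symbol of the nearest gene had no RefSeq match for 20.5% and 16.8% of members, against 7.78% and 14.9% inside. Genes without a match were counted as neither type, which lowers both shares most in the members with H3K27ac.

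The 67 start members covered genes from the most abundant to the silent. The most abundant was Krt5, whose start region carried a member (chr15:101712737-101713067) with the summit 3 bp upstream of the annotated start. Its KLF5 fold enrichment was low at 2.73, its H3K27ac fold enrichment was 2.49, and the nearest ATAC peak was 4362 bp away. Krt5 RNA was 8008, 7595 and 6020 RPKM in the Klf5-/- libraries and 6463, 6328 and 5361 RPKM in the Klf5+/- libraries, where RPKM is counts scaled to exon length and to the library's counts on genes. The genotypes overlapped, with a log2 fold change of 0.18 (SE 0.14; adjusted p = 0.781 by edgeR).

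Other genes with a member at the start are named as examples, chosen after their values were seen. With H3K27ac there were starts of Ddb1 (DNA damage recognition), Mcm6 (a subunit of the replicative helicase), Akt1 (a kinase of growth signalling), Fst (the activin antagonist follistatin) and Wnt3a (a Wnt ligand). The nearest ATAC peak lay 27, 94, 4032, 6 and 5378 bp from these members, so those of Ddb1, Mcm6 and Fst were at the edge of open chromatin. The mean levels of the 5 genes in the Klf5-/- libraries were 176, 98.3, 70.4, 46.5 and 6.71 RPKM. In the Klf5+/- libraries they were 170, 84.2, 66.6, 43.3 and 7.05 RPKM. None of the 5 passed, with adjusted p values from edgeR of 0.612 to 0.979. Without H3K27ac there were starts of Prom2, Rnase4 (a secreted ribonuclease), Slc44a2 (a choline transporter-like protein) and Cmtm6 (a membrane protein), and of Apol8 and several predicted genes and pseudogenes at or near 0 RPKM.

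Tmem125 was the start with the strongest member outside the start of chromosome 9. It carried 2 members that share 1 H3K27ac peak. The upper one (chr4:118543611-118544375, summit 94 bp after the annotated start) had a fold enrichment of 5.64 and a −log10 q of 27.2, and the nearest ATAC peak was 2833 bp away. Tmem125 stood at 7.90, 7.30 and 9.05 RPKM in the Klf5-/- libraries and 10.5, 13.0 and 10.8 RPKM in the Klf5+/- libraries. The libraries of the genotypes did not overlap, and the gene did not pass, at a log2 fold change of −0.57 (SE 0.14; adjusted p = 0.142 by edgeR).

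KLF/SP letters were common in promoters near members with H3K27ac. RefSeq windows running from 250 bases before to 50 after a start were taken for genes with a member's summit within 1 kb. The letters CCNCNCCC, on either strand, were in 33 of 43 windows near members with H3K27ac (76.7%, interval 61.4 to 88.2%) and in 19 of 33 near members without (57.6%, interval 39.2 to 74.5%). These intervals overlap, and the difference was not tested. The letters were in 2335 of 2914 (80.1%) and 132 of 176 windows near inside peaks with and without H3K27ac, and in 49.5% of all 32817 windows. The interval near members without H3K27ac includes this 49.5%, so these windows are not set apart from all promoters. The GC box GGGCGGG was in 44.2% and 24.2% of the windows near members, against 61.6% and 54.5% near inside peaks and 25.6% of all. The CACCC box CCCACCC, part of which lies within some KLF/SP matches, was in 18.6% and 27.3%, against 24.6% and 22.7% near inside peaks. Over all windows its share was 17.48% (5735 of 32817), close to the 18.6% near members with H3K27ac.

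These windows also differed in base composition. Median GC content was 57.7% and 54.3% near members with and without H3K27ac, against 64.0% and 60.2% near inside peaks and 52.7% over all windows. How far GC content sets the motif shares was not tested. Of other letters searched on both strands, the NF-Y letters CCAAT were in 39.5% and 39.4% of the windows near members, against 37.4% of all. The ETS letters CCGGAAG were in 0 of 43 and 3 of 33 windows, against 18.5% of those near inside peaks with H3K27ac and 8.86% of all. By a rough rule of 3 counts of the total, and not the exact interval used elsewhere, 0 in 43 allows a share of up to about 6.98%. The 43 windows came from 38 genes, so not all are independent.

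Among the lists of skin genes, chosen with earlier results of these data known, basal keratinocyte genes and sphingolipid genes had members within 10 kb of their starts. There were 4 of 17 basal genes, among them Krt5, Itga3 (integrin alpha 3, an adhesion receptor) and Ccnd2 (cyclin D2). There were 3 of 43 sphingolipid genes: Ormdl3, Asah2 (neutral ceramidase) and Sgpl1 (sphingosine-1-phosphate lyase). No suprabasal gene of 21, no regulator of 44 and no structural RNA gene of 8 had one. The share of all genes with a member within 10 kb was not counted, so these counts do not set any list apart. KLF5 peaks inside ATAC peaks stood within 10 kb of 8, 12, 9, 22 and 4 genes of the same 5 lists. In the RNA, Krt2, a suprabasal keratin with no member within 10 kb of its start, was the single gene of these lists past the edgeR test over all genes, and it was higher in the Klf5-/- libraries (log2 fold change 2.46, edgeR adjusted p = 0.00779), against the sign of its list's median. The median log2 fold changes were 0.10 over 17 basal, −0.45 over 21 suprabasal, −0.26 over 42 sphingolipid, −0.06 over 43 regulator and 0.08 over 4 structural RNA genes tested, against 0.01 over all genes.

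The members near these named genes were mostly weak peaks. That of Itga3 (3854 bp into the gene, fold 2.83) had H3K27ac and was 2231 bp from an ATAC peak. That of Ccnd2 (1632 bp upstream, fold 2.99) had no H3K27ac within 50 kb. That of Ormdl3 (chr11:98587277-98587482, fold 3.38) lay at the start, 36 bp from an ATAC peak. That of Sgpl1 (3108 bp upstream, fold 4.17) was without H3K27ac. That of Asah2 (chr19:32068712-32068932, 7388 bp upstream, fold 2.79) had H3K27ac and lay 477 bp from an ATAC peak.

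Asah2 RNA did not pass the edgeR test over all genes. It was 4.35, 4.47 and 5.98 RPKM in the Klf5-/- libraries and 7.84, 8.59 and 7.51 RPKM in the Klf5+/- libraries. The genotypes did not overlap, and the log2 fold change was −0.76 (SE 0.15; adjusted p = 0.0868 by edgeR). The gene did pass with DESeq2 (adjusted p = 0.00054), in edgeR without the count filter (0.0027) and in edgeR without the third Klf5-/- library (0.0014); with any other library left out the adjusted p was 0.111 to 0.496. Ormdl3 was 30.0, 28.8 and 29.5 RPKM in the Klf5-/- libraries and 27.6, 25.8 and 27.4 RPKM in the Klf5+/- libraries (log2 fold change 0.06, edgeR adjusted p = 0.896). Itga3, Ccnd2 and Sgpl1 had log2 fold changes of 0.21, 0.24 and 0.02 with adjusted p between 0.44 and 0.977.

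Genes near the members with H3K27ac were expressed more often than those near the members without. The nearest start within 50 kb gave 258 genes with H3K27ac and 390 without. Of these, 56.6% and 45.1% had a mean of at least 1 RPKM in the Klf5+/- libraries. For KLF5 peaks inside ATAC peaks the shares were 74.5% with H3K27ac and 49.7% without, and 29.7% of all 39179 genes reached 1 RPKM. Within 1 kb of the start the shares were 78.4% (29 of 37 genes) and 39.3% (11 of 28).

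With edgeR, a single gene near the members passed the test between the genotypes. Reads on Klf5 itself numbered 6934, 7211 and 6501 in Klf5-/- and 8376, 6609 and 6624 in Klf5+/-. At equal depth that is 109 ± 8.35 and 103 ± 8.78 RPKM (SD, n = 3 each), with a log2 fold change of 0.02 (SE 0.10; adjusted p = 0.982 by edgeR), so whole-gene counts do not check the labels. Of 15092 genes tested, 13 passed an edgeR adjusted p of 0.05 (0.0861%), 5 higher (0.0331%) and 8 lower (0.0530%). Among genes nearest to members, 1 of 172 tested passed with H3K27ac and 0 of 227 without. At an unadjusted p under 0.05 there were 26 of 172 (15.1%) and 34 of 227 (15.0%), against 10.0% of all genes. Of these, 8 and 8 were higher (all genes 3.78%) and 18 and 26 lower (all genes 6.24%). Inside ATAC peaks the unadjusted shares were 10.1% with H3K27ac, close to that of all genes, and 19.3% without. For peaks without H3K27ac the excess was thus not particular to the members. For peaks with H3K27ac and starts within 50 kb it was seen in the members and not inside, and the difference was not tested. It was not seen for these members with starts within 5 kb (6 of 63, 9.52%) or 1 kb (1 of 30, 3.33%). For members without H3K27ac these shares were 14 of 88 (15.9%) and 4 of 15 (26.7%). Over the tested genes within 50 kb the median log2 fold change was −0.01 with and −0.02 without H3K27ac, against 0.01 for all genes.

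These counts depended on the fit and on single libraries. DESeq2 called 458 of 15092 genes (3.03%). Near the members it called 11 of 172 with H3K27ac and 11 of 227 without. Leaving out the third Klf5-/- library gave 513 of 15486 genes (3.31%), with 11 of 173 and 11 of 229 near the 2 classes. Without the first Klf5-/- library none was called, with 1003 genes at an unadjusted p under 0.05. Fibroblast markers summed to 62.3 to 89.2 CPM (depth-scaled counts) in the Klf5-/- libraries and 22.7 to 44.1 CPM in the Klf5+/- libraries, with 6 of 6 above 0 in log2 fold change. The 4 erythroid markers summed to 263 to 2716 and 15.5 to 1104 CPM, the 4 endothelial ones to 1.79 to 2.65 and 0.631 to 1.40 CPM, and the 8 keratinocyte ones to 53059 to 69319 and 75010 to 93256 CPM, in Klf5-/- and Klf5+/- libraries. Of the keratinocyte markers, 5 of 8 were above 0 in log2 fold change, with a median of 0.02, although their sum was lower. No list had a marker at 0 in all libraries. The part of these differences in the RNA results was not tested, and in bulk RNA fewer cells of a type and less RNA per cell cannot be told apart.

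The called gene was Slco3a1, an organic anion transporter. Its member (chr7:74537195-74537614, fold 4.68, −log10 q 11.6) lay 17432 bp inside the gene, had H3K27ac of fold 3.02 and was 672 bp from an ATAC peak. Its RNA was 5.12, 5.55 and 5.97 RPKM in the Klf5-/- libraries and 11.4, 9.04 and 8.45 RPKM in the Klf5+/- libraries. Every Klf5-/- library was below every Klf5+/- library, with a log2 fold change of −0.86 (SE 0.12; adjusted p = 0.0432 by edgeR). The adjusted p was above 0.05, at 0.0589 to 0.3, without any 1 of the 3 Klf5+/- libraries or without the first or second Klf5-/- library, and the log2 fold change stayed between −0.95 and −0.73.

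The other genes of lowest p near members with H3K27ac were mostly lower. None of those named here passed with edgeR, and all 8 passed with DESeq2, at adjusted p values of 0.00054 to 0.0272. They were picked by their edgeR p in the same libraries, and DESeq2 called more genes throughout. Their passing with DESeq2 is therefore not separate support. Pkp1, the desmosomal protein plakophilin 1, was 386, 376 and 420 RPKM in the Klf5-/- libraries and 551, 574 and 462 RPKM in the Klf5+/- libraries (log2 fold change −0.49, edgeR adjusted p = 0.145). The libraries of the genotypes did not overlap, and the member lay within the gene, 35807 bp from its start. Galnt6, Tyro3 and Mettl7a3 stood at −0.59, −0.43 and −2.16, and Anln (anillin, of the cytokinetic ring) and Adamtsl4 at 0.35 and 2.64.

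Near the members without H3K27ac the 10 genes of lowest p had edgeR adjusted p values of 0.0868 to 0.179. Their DESeq2 adjusted p values were 0.0011 to 0.0497, under its threshold in all 10. These genes too were picked by their edgeR p in the same libraries, so this is not separate support. Prom2 has its member (chr2:127541455-127541654, fold 5.00) 105 bp upstream of the start and 41 bp from an ATAC peak. It was 19.4, 20.6 and 18.3 RPKM in the Klf5-/- libraries and 29.5, 29.0 and 22.3 RPKM in the Klf5+/- libraries. Its log2 fold change was −0.54 (SE 0.11; adjusted p = 0.0998 by edgeR). The growth factor gene Pdgfb and the receptor gene Fgfr3 stood at −0.56 and −0.42, with members 4405 bp upstream and 16442 bp downstream of the start. Gdpd2, Ildr2, Tfap2e (an AP-2 transcription factor), Tjp3 (a tight junction protein) and Usp20 stood at −0.61, −1.14, −0.66, −0.49 and −0.41. Thbs2 (thrombospondin 2, a matrix protein made by fibroblasts) and Upk3bl stood at 0.61 and 3.01.

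**Figure D4:**
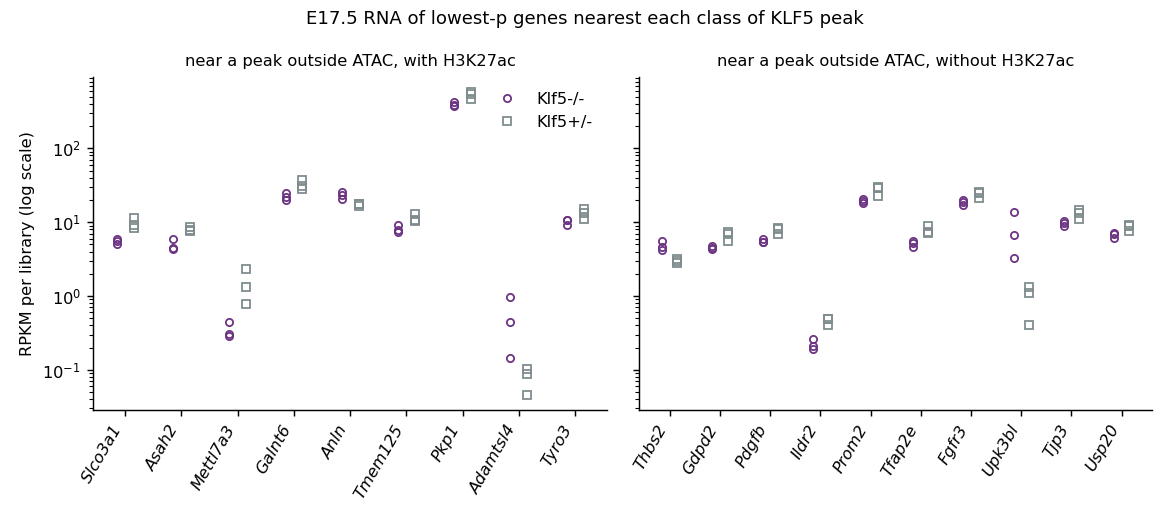
RNA level in RPKM (y axis, log scale) of genes of lowest p nearest to members with (left, 9 genes) and without (right, 10 genes) H3K27ac; each point is 1 library, Klf5-/- circles left of Klf5+/- squares (3 libraries each). Slco3a1, at 5.12 to 5.97 RPKM in Klf5-/- and 8.45 to 11.4 RPKM in Klf5+/-, is the 1 gene drawn that passed with edgeR. All of those drawn passed with DESeq2, run on the same libraries that were used to pick them.

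The strongest members did not resemble the rest. Of the 60 KLF5 peaks with a fold enrichment of 7 or more, 10 (16.7%) were outside ATAC peaks, against 13.3% of all, and 9 of these 10 had H3K27ac. Such peaks tended to have the same outline in both ChIP libraries. Both ends lay within 20 bp of the ends of the H3K27ac peak in 5 of the 9, in 3 of 34 members at fold 5 to 7 and in 8 of 284 (2.82%) below 5. Inside ATAC peaks the same held for 13 of 48 (27.1%), 1.38% and 0.857%. In all it held for 16 of 327 members (4.89%, interval 2.82 to 7.82%) and 54 of 4437 inside peaks (1.22%, interval 0.916 to 1.59%). This measure was added after the data were seen.

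The highest member (chrX:143482861-143483246, intergenic, 35533 bp upstream of Pak3) had a KLF5 fold enrichment of 17.9, the second highest of the list. Its H3K27ac fold enrichment was 14.2, the summits were at the same base, and the nearest ATAC peak was 35455 bp away. Pak3, a kinase gene, was 1.40, 1.52 and 1.84 RPKM in the Klf5-/- libraries and 2.40, 2.18 and 1.97 RPKM in the Klf5+/- libraries (−0.52, edgeR adjusted p = 0.172). The next (chr4:70377982-70378371, within Cdk5rap2, a centrosome gene) had fold enrichments of 14.9 and 8.87 with summits 3 bp apart, and the nearest ATAC peak 31690 bp away. The member at chr4:20191718-20192102, within Nkain3, had 7.26 and 7.13, and its ends were 2 and 3 bp from those of the H3K27ac peak. These 3 outlines are 386, 390 and 385 bp wide.

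Other high members with H3K27ac were less alike in the 2 ChIP lists. The member near the pseudogene Gm5466 (chr2:181917312-181917862) had fold enrichments of 9.23 and 6.59 with shared ends and summits 169 bp apart. The member within Fbxw4 (chr19:45649843-45650370) had 8.88 and 5.81, with summits at the same base and a start 104 bp off. Those at chr4:56582298-56582967, near Spsb2 and near Myo16 had KLF5 fold enrichments of 7.69, 6.90 and 6.36 and H3K27ac peaks of other outlines.

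**Figure D5:**
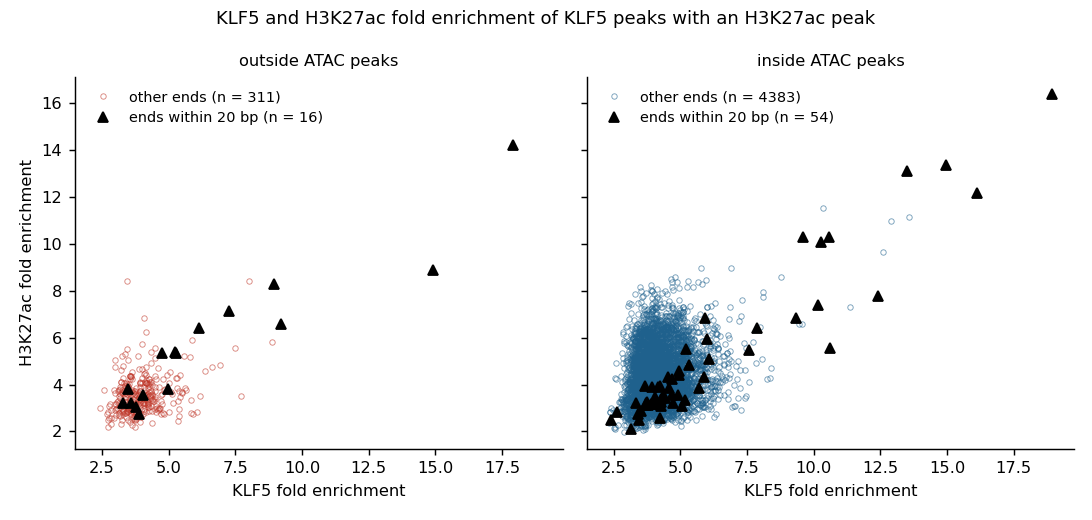
H3K27ac fold enrichment (y axis) against KLF5 fold enrichment (x axis), both the authors' ratios, for KLF5 peaks with an H3K27ac peak outside (left, n = 327) and inside (right, n = 4437) ATAC peaks; triangles have both ends within 20 bp of those of the H3K27ac peak. The highest point on the left, at 17.9 and 14.2, is a triangle, as are 5 of the 9 members at a KLF5 fold enrichment of 7 or more.

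Some members were clustered, and the start of chromosome 9 held the densest group. In all, 46 members (5.36%, interval 3.95 to 7.09%) lay under 2 kb from another member, in 23 pairs: 28 with H3K27ac and 18 without. Another KLF5 peak of any kind stood within 2 kb of 20.2% of members with H3K27ac and 7.72% of those without, against 9.02% and 5.10% inside. In the first 100 kb of assembled chromosome 9, known for satellite-like repeats, 14 KLF5 peaks stood beside 24 ATAC peaks and 14 H3K27ac peaks. Of these, 8 were members and 7 had H3K27ac, with fold enrichments up to 8.93. The nearest starts there are predicted genes such as Gm10720 and Gm10715, with 0 counts in all 6 RNA libraries, and 5 of the 16 members with shared ends lie in this stretch.

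Clusters elsewhere were pairs near the genes Tmem125, Wnt10a, Pik3c2b, Ddx54 and Lfng among others. The highest outside chromosome 9 was a pair in an intergenic stretch, 373027 bp from its nearest start, Kcnh5 (chr12:74804115-74804596, fold 7.48). After it came an intergenic pair 183331 bp from its nearest start, that of the snRNA gene Gm24614 (chr3:8245655-8246016, fold 6.62). Leaving out the 59 members that were clustered or shared ends with an H3K27ac peak left 799. Of these, 35.8% had H3K27ac, their median fold enrichments were 3.87 and 3.81, and 11.9% and 5.46% lay near a start.

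The 8 highest members without H3K27ac mostly had a nearest gene at or near 0 RPKM. The highest (chr12:67059320-67059652, fold 7.28) lay within Mdga2, a gene of neurons, 160860 bp from an ATAC peak. The next lay near the pseudogene Gm9008 (chr6:76494842-76495303, fold 6.81), 250660 bp from an ATAC peak and 3245984 bp from H3K27ac. Members of fold 5.84, 5.78 and 5.60 lay near Ttc30a2, within the muscle creatine kinase gene Ckm and near the kallikrein gene Klk15, which had 0 counts in all 6 libraries. Those within Aox2, within Grin1 (a glutamate receptor gene) and near the pseudogene Gm8357 had 5.57, 5.56 and 5.51. The exception in expression is Bzw1, the start nearest to the Aox2 member at 31255 bp, with 237 to 292 RPKM in the Klf5-/- libraries and 249.6 to 293 RPKM in the Klf5+/- libraries.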

How the data were processed

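The authors deposited 1 peak list for each chromatin sample and raw read counts per Ensembl gene for each library of RNA. The submitters' processing notes name STAR 2.6.0b, HTSeq, Bowtie 1.0.1, Bowtie2 2.2.3, MACS2 and the build mm10 (GRCm38), without saying which step used each. The sources used here do not give the strand setting, the control library or the threshold of peak calling. Each deposited peak carries a fold enrichment (a ratio) and −log10 p and −log10 q values, the authors' own, compared within 1 list at a time. The deposited gene table beside the other RNA set gave symbols, positions and exon lengths; exon-level positions and masked repeats were not used here.

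Overlap meant 1 shared base. For the RNA, peaks were assigned to the nearest gene start within 50 kb, while named regions carry the nearest start at any distance. Shares carry exact Clopper-Pearson 95% intervals (scipy 1.17.1). Sequences came from RefSeq promoters (GRCm38.p6). RNA counts (34486898 to 46445546 per library on genes; 13.5 to 16.9% of reads named no gene and were left out) were fitted with edgeR 4.0.16 in R 4.3.3 (TMM, filterByExpr, robust quasi-likelihood, Benjamini-Hochberg, threshold 0.05). DESeq2 1.42.0, no count filter, each library left out and a replicate block were alternatives. The overlap and RNA steps were tested on simulated data. Regions named are the 8 highest in fold enrichment of each class once clustered members (under 2 kb from another) were left out. The 5 highest among clustered members and 3 on either side of the ATAC threshold were added. Genes named are the nearest to these, list genes with a member within 10 kb and the 10 of lowest p of each class; other start and cluster genes were chosen after their values were seen. Some genes that these rules name are not reported here. The members and lists were chosen with earlier results of these data known.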

Additional observations from a re-analysis of the deposited data

Results flagged for a closer look

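A signal lay outside the sequences analysed: 39 KLF5 peaks stood on sequences other than chromosomes 1 to 19, X and Y. Of these, 15 were on the unplaced contig JH584304.1, where the fold enrichment reached 20.1, above every peak on the chromosomes analysed, and 5 were on the mitochondrial genome (1.71 to 2.40). ATAC peaks overlapped 13 of the 39 and H3K27ac peaks 25.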

How the results depend on the processing

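The count of 858 members was 401 with KLF5 peaks of a −log10 q of at least 5 and 83 at 10, where 43.6% and 60.2% had H3K27ac in place of 38.1%. The H3K27ac share was 34.5% when the mark had to cover 50% of the KLF5 peak and 27.7% with H3K27ac peaks of a −log10 q of at least 5. Other overlap rules gave 750 to 1193 members. The share near a gene start was 6.12% and 28.7% at 500 bp and 5 kb with H3K27ac, and 2.26% and 25.8% without. Median fold enrichment at a −log10 q of at least 5 was 4.33 and 4.31. Members within 10 kb of another made up 8.16%. In the RNA the 13 calls (0.0861% of genes tested) were 237 without a count filter (1.02%) and 458 with DESeq2 (3.03%). With each library left out they were 0 to 513 (0 to 3.31%). Near members with H3K27ac, in the same order, the 1 call of 172 was 8 of 214, 11 of 172 and 0 to 11 of 172 or 173. The count was 0 with gene starts within 5 kb or 1 kb. Near members without H3K27ac the 0 calls of 227 were 8 of 315, 11 of 227 and 0 to 11 of 229 to 231. With a replicate block the 13 calls were 42, with 1 and 0 near members; libraries of the same number did not deviate together (correlations 0.03, −0.10 and 0.18), and the numbers were not taken to pair the libraries. With each library left out, the log2 fold change of Sgpl1, which was not called, ranged over −0.020 to 0.071 (lowest without the first Klf5-/- library). The cause of these changes was not tested. Motif searches around summits and a count of masked bases were not run because no genome was given; windows limited to 150 or 250 bases before the start, or to those that hold a summit, were added after seeing the data and moved the KLF/SP share within its interval. Depth limits what can be said: 1 sample for each assay gives no error between samples.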

Other observations

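The members were spread over the chromosomes, from 8.61% of the KLF5 peaks of chromosome 7 to 17.7% of chromosome 13, with 10 of 52 on the X and 0 of 2 on the Y. Of genes nearest to more than 1 member within 50 kb, BC046401 had 3 (1 with H3K27ac) on chromosome 2.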
